A study of Drosophila melanogaster with 41 samples.

Results

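This account concerns the change in messenger RNA between late embryos and adult heads of wild-type Drosophila melanogaster males. The libraries were chosen by their labels and not by any measured value: 4 libraries of whole embryos collected 14–16 h after egg laying and 3 libraries of heads collected at 72 h AH, the abbreviation the labels use for the adults, 7 of the 41 samples of the series. The series examines ELAV and FNE, neuronal RNA-binding proteins, in wild-type and mutant flies. All flies here carried the wild-type genotype (w1118 serves as the study's control strain), were untreated males grown at a common temperature, and were pooled, with several individuals in each replicate. Nothing in the labels says whether the pools came from separate cultures, so p-values measure the spread between these pools. Stage, tissue and collection differ together between the groups, whole animals on one side and dissected heads on the other, so their effects cannot be told apart. The same stage contrast in elavmin flies, which carry a frame-shift allele of elav that disrupts the last RNA-recognition motif of the protein and have 4 embryo and 3 head libraries of their own, is given beside the wild-type values where it helps. For each library the deposited tables hold raw counts on 84619 exon bins, segments cut wherever the exons of a gene's transcripts begin or end, and both the total of each gene and the share of each bin within its gene were compared.

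A fly embryo of this age has finished organogenesis: its nerve cord and body wall muscles are formed, its epidermis is secreting the larval cuticle, and many neuroblasts have stopped dividing. An adult head holds mature brain neurons and glia, the compound eyes, antennae and mouthparts, head fat body and a few muscles. Neurons are known for long 3′ untranslated regions (3′ UTRs) and for very short exons that other tissues skip. Proteins of the ELAV/Hu family bind U-rich sites near splice and polyadenylation sites, promote many of the long 3′ UTRs and regulate the inclusion of many exons.

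The embryo libraries held 33721258 to 38360565 bin counts each, and the head libraries 21007183 to 22713919. A read that spans several bins counts in each, so these sums exceed the number of fragments. Levels are given as CPM, counts brought to a common library total with TMM, a trimmed-mean factor per library, and are compared between stages, never between genes. Marker genes followed the labels in their sums: 5 photoreceptor markers summed to 3.77–4.09 CPM in embryos and 42517–43882 CPM in heads, 4 neuronal markers to 1430–1564 and 3979–4626 CPM, 3 body wall muscle markers to 36286–37488 and 5059–6320 CPM, and 4 gut markers to 67.0–106 and 0.703–4.68 CPM. Singly, by the limits given below, all 5 photoreceptor markers and 2 of the 4 neuronal markers were called higher in heads. All 3 muscle markers were called lower, and of the gut markers 3 were lower and 1 was higher. Of the defining markers, zpg (germ cells), ase (neuroblasts) and Sgs3 (salivary gland) were at 0 in heads and dj (testis) was at 0 in both stages. Coverage leaned further towards the 3′ end in heads, where the median log2 ratio of counts per base in the 3′ over the 5′ bins of 1061 genes was 0.247–0.296, against 0.010–0.045 in embryos. Counts did not follow strand: in 12 pairs of bins that overlap almost wholly on opposite strands, the smaller count was 0.853 to 0.996 of the larger. Of all bins, 7.63% overlap a gene of the opposite strand, and named genes or bins that lie largely in such overlap are marked where their values are given. The samples are bulk RNA, in which fewer cells of a type and less RNA per cell cannot be told apart.

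The transcriptome differed broadly between the stages. Of 11901 genes tested with edgeR's quasi-likelihood test, 2615 were higher in heads (22.0%) and 3362 were lower (28.2%), called at a Benjamini-Hochberg adjusted p under 0.05 and a change of at least 2-fold, so that 50.2% of all genes were called. Without the limit on the fold change 10124 genes passed. The decreases reached further than the increases: 1500 genes were lower in heads by at least 8-fold and 707 were higher by as much, and 235 against 51 differed by at least 1024-fold. Among the tested genes, 283 had no count in any head library and 22 had none in any embryo library. Heads had fewer libraries, with fewer counts each. Over a group, 3 counts stand for 0.0422 CPM in heads and 0.0221 CPM in embryos. The part of depth in these extreme folds and zeros was not tested. The CPM values of the groups overlapped in 1865 genes. The median log2 fold change over all genes was −0.05. Scaling by library size alone moved this median to 0.16 and the split to 3079 higher and 2987 lower.

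Among called genes with at least 20 CPM in the higher stage, the 12 that rose most were ninaE, CG4716, Rh3, Cpn, Obp56g, CG17108, Obp56e, Obp19d, CG12158, Tsf1, asRNA:CR44509 and retinin, of which Obp56e and asRNA:CR44509 lie wholly in bins shared with the opposite strand. The 12 that fell most were CG2962, CG15022, CG10953, TwdlB, TwdlN, TwdlL, CG13159, TwdlD, CG13492, CG30457, EAChm and Ccp84Ac. CG15022 had 1661, 1956, 1881 and 1786 CPM in the embryo libraries and 0, 0 and 0 CPM in the head libraries, at least 43193-fold lower when 3 counts over the 3 head libraries (0.0422 CPM) are taken as the floor. CG2962 had 2946, 3393, 3155 and 3103 CPM in embryos and no count in heads, and it lies wholly within bins that another gene overlaps on the opposite strand. Transferrin 1 (Tsf1), an iron carrier of the hemolymph, had 0.0553, 0.0303, 0.0628 and 0.0863 CPM in the embryo libraries and 1705, 892 and 1179.6 CPM in the head libraries; the head libraries spread over almost a factor of 2, far less than their distance from the embryos (log2 fold change 14.28 ± 0.43 (SE), adjusted p = 6.42e-08).

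**Figure D1:**
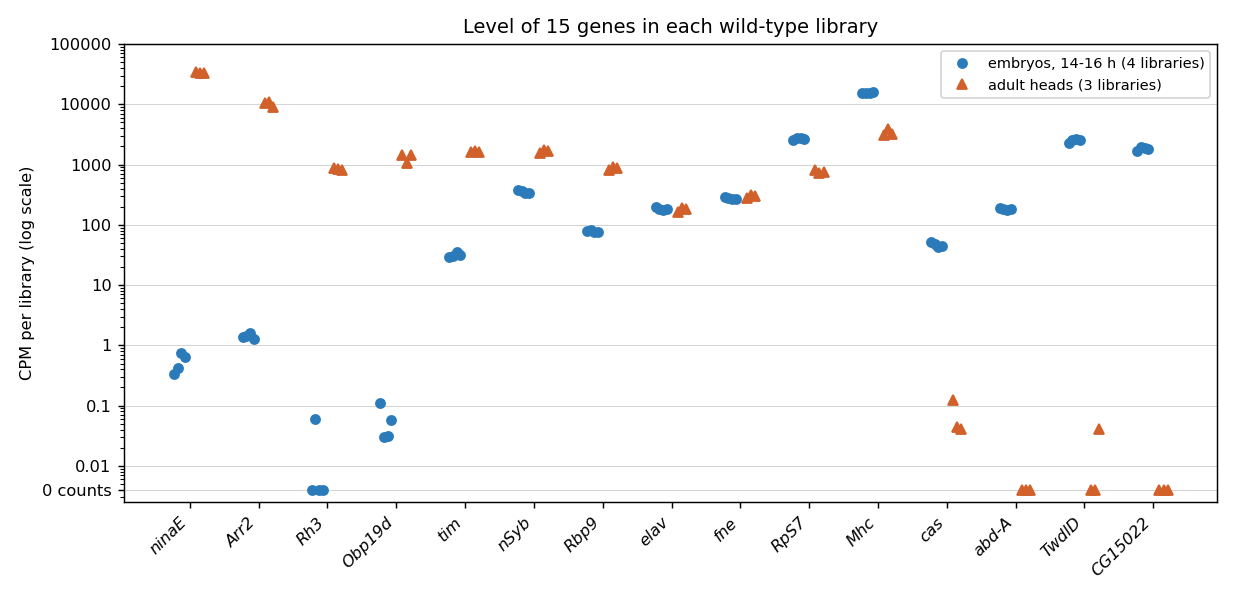
Level of 15 genes in each wild-type library, in CPM on a log scale, with libraries without a count drawn at the lowest line; circles are the 4 embryo libraries and triangles the 3 head libraries. The opsin gene ninaE lies at 33326 CPM or more in heads and at 0.754 CPM or less in embryos, elav and fne overlap between the stages, and TwdlD, CG15022 and abd-A are at or near 0 in heads.

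Phototransduction genes showed the most uniform rise. In this cascade, light converts rhodopsin to its active form, a G protein passes the signal to the phospholipase C encoded by norpA, and TRP channels then open. Of 30 single genes of the cascade tested, 29 were higher in heads, none was lower, and Gprk1 did not pass. The shares over all genes were 22.0% higher and 28.2% lower. The median log2 fold change of the cascade was 7.21, beside −0.05 for all genes. The main opsin ninaE (FBgn0002940) had 0.332, 0.424, 0.754 and 0.633 CPM in the embryo libraries and 34668, 33525 and 33326 CPM in the head libraries, and took 3.59–3.79% of all counts in the head libraries. The groups lay far apart (log2 fold change 15.95 ± 0.15 (SE), adjusted p = 1.96e-15). The arrestin genes Arr1 and Arr2, whose products quench active rhodopsin, went from 8.75 to 9526 CPM and from 1.43 to 10150.0 CPM (log2 fold changes 10.09 ± 0.11 and 12.80 ± 0.12). The light-gated channel gene trp had 0.553, 0.636, 0.408 and 0.432 CPM in the embryo libraries and 4464, 4909.5 and 4783 CPM in the head libraries, a 9207-fold difference. The phospholipase gene norpA was already expressed in embryos, with 46.6, 43.5, 40.7 and 41.6 CPM in the embryo libraries and 1905, 2074 and 2269.9 CPM in the head libraries, and rose 48.3-fold. The myosin gene ninaC, whose product moves arrestin and other cargo in photoreceptors, went from 3.52 to 5153 CPM. The opsins of the inner photoreceptors were all but absent from embryos: Rh3 had 0, 0.0606, 0 and 0 CPM in embryos and 878, 833 and 824 CPM in heads, and Rh4 had 0.221, 0.121, 0.0314 and 0.230 CPM in embryos and 891, 854 and 823 CPM in heads. Calphotin (Cpn), a calcium-binding protein of photoreceptors, had 0.0277, 0, 0.0314 and 0 CPM in embryos and 509, 519 and 903 CPM in heads. Retinin, a protein of the corneal lens, had 0.0830, 0.151, 0.0314 and 0.144 CPM in embryos and 1276, 1273 and 1120.3 CPM in heads. No library of one stage reached the range of the other for any of these genes.

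Genes of eye development and eye pigments were more divided. In heads 10 of 18 were higher and 2 lower, beside 22.0% and 28.2% of all genes (median log2 fold change 1.80). The sevenless receptor gene sev, which directs one photoreceptor to its fate, went from 30.6 to 123 CPM, and that of its ligand, boss, had 2.93, 4.61, 4.12 and 4.49 CPM in embryos and 222, 239.9 and 226 CPM in heads (log2 fold change 5.83 ± 0.12 (SE), adjusted p = 6.34e-12). The Pax6 gene toy had 51.3 ± 1.66 CPM in embryos and 176 ± 12.2 CPM in heads. The 2 lower genes, v and cn, encode enzymes of the pathway to brown eye pigment. The first of them, v, had 74.8, 74.99, 81.7 and 78.4 CPM in the embryo libraries and 33.1, 30.6 and 29.5 CPM in the head libraries, and these did not overlap (log2 fold change −1.32 ± 0.06 (SE), adjusted p = 6.97e-10). In elavmin libraries v did not pass (log2 fold change −0.10, adjusted p = 0.439 with edgeR). The values of cn, 3.51, 4.15, 4.05 and 3.97 CPM in embryos and 0.752, 0.967 and 0.899 CPM in heads, all fall in bins that another gene overlaps on the opposite strand, so the gene they come from cannot be told apart.

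Genes for odorant-binding and related proteins, which carry odor molecules through the lymph of sensory hairs, moved in both directions. Of 38 tested, 21 were higher in heads and 11 were lower (55.3% and 28.9%, beside 22.0% and 28.2% of all genes). Obp19d had 0.111, 0.0303, 0.0314 and 0.0576 CPM in the embryo libraries and 1453, 1057 and 1431 CPM in the head libraries. Obp56g had no count in embryos and 126, 136 and 128 CPM in heads, at least 5888-fold higher with 3 counts over the embryo libraries (0.0221 CPM) as the floor. Obp83g went the other way, with 199, 263, 228 and 205 CPM in the embryo libraries and 1.88, 2.24 and 1.19 CPM in the head libraries (log2 fold change −6.99 ± 0.19 (SE), adjusted p = 8.31e-10). Obp44a rose from 82.3 to 646 CPM, although 82.7% of its counts fall in a bin shared with the opposite strand, and the remainder gave a log2 fold change of 2.92. Obp47b (22.2 ± 0.590 CPM in embryos, 0.0969 ± 0.105 CPM in heads) and Obp56e (at 0 in embryos, 112 ± 5.10 CPM in heads) lie wholly in such bins. Of 173 odorant and ionotropic receptor genes listed singly, only 51 had enough counts to be tested, of which 20 were higher in heads (39.2%) and 8 were lower (15.7%). Ir76a had 3.35, 2.73, 3.55 and 3.14 CPM in embryos and 12.9, 18.5 and 16.7 CPM in heads. These receptor genes are each expressed in few sensory neurons, and 122 of them fell below the minimum count for a test.

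The ELAV family itself changed in only 1 of its 3 members. The elav mRNA had 196, 183, 178 and 185 CPM in the embryo libraries and 164, 192 and 183 CPM in the head libraries, groups that overlap (log2 fold change −0.04 ± 0.06 (SE), adjusted p = 0.503), and 53.1% of its counts fall in bins shared with the opposite strand, outside which the log2 fold change was −0.10 (adjusted p = 0.146). The fne mRNA had 284, 279.6, 265 and 268 CPM in the embryo libraries and 282, 313 and 296 CPM in the head libraries; these ranges also overlap (log2 fold change 0.12 ± 0.05 (SE), adjusted p = 0.0576). Rbp9, the third member, had 79.4, 80.6, 75.5 and 75.7 CPM in the embryo libraries and 826, 904 and 879.9 CPM in the head libraries, 11.2-fold higher in heads with no overlap (log2 fold change 3.48 ± 0.05 (SE), adjusted p = 4.89e-14). The 3 paralogs encode RNA-binding proteins whose restricted and partly sequential expression in neurons is well known.

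Among 18 neuronal RNA regulators, 4 were higher (22.2%) and 3 were lower (16.7%), beside 22.0% and 28.2% of all genes. The sign of their median depended on the scaling. Syncrip (Syp) and Lin-28 are RNA-binding proteins known as markers of late and early developmental time, respectively. Syp had 6.36, 5.82, 9.33 and 6.04 CPM in the embryo libraries and 371, 396 and 402 CPM in the head libraries (log2 fold change 5.83 ± 0.15 (SE), adjusted p = 5.77e-10), while lin-28 had 73.7, 74.2, 73.0 and 70.4 CPM in the embryo libraries and 0.167, 0 and 0.204 CPM in the head libraries (log2 fold change −9.12 ± 0.20 (SE), adjusted p = 1.42e-12). Srrm234, of the SR-related splicing factors, went from 231 to 1018 CPM (log2 fold change 2.14 ± 0.06).

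Genes of mature neurons were higher in heads as groups, by a few-fold rather than by orders of magnitude. Of 28 genes for synaptic vesicle proteins and transmitter synthesis, 17 were higher in heads and none was lower (median log2 fold change 1.28). The shares over all genes were 22.0% higher and 28.2% lower. The vesicle SNARE gene nSyb had 371, 360.3, 344 and 341 CPM in the embryo libraries and 1543, 1733 and 1667 CPM in the head libraries, and the groups were separate (log2 fold change 2.22 ± 0.06 (SE), adjusted p = 4.03e-12). The calcium sensor gene Syt1 went from 360.2 to 1598 CPM, and complexin (cpx), a clamp on vesicle fusion, from 407 to 2705 CPM. The active zone gene brp had 613, 591, 571 and 555 CPM in embryos and 854, 983 and 1007 CPM in heads, a log2 fold change of 0.70 ± 0.07 that stayed under the limit. Of 39 transmitter receptor genes, 24 were higher and 2 were lower (median 1.32). Among those that rose, the nicotinic subunit gene nAChRbeta1 had 131, 124, 124 and 124 CPM in the embryo libraries and 555, 633 and 569 CPM in the head libraries, the GABA receptor gene Rdl went from 224 to 482 CPM, and DopEcR, a receptor for dopamine and ecdysone, from 77.9 to 518 CPM. The 2 that fell, GluRIIB and GluRIIC, encode glutamate receptor subunits of the larval neuromuscular junction. GluRIIB had 12.9, 18.1, 15.4 and 15.3 CPM in the embryo libraries and 0.209, 0 and 0.409 CPM in the head libraries (log2 fold change −6.16 ± 0.37 (SE), adjusted p = 1.35e-07).

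Of 26 ion channel genes of excitable cells, 19 were higher in heads and 1 lower, beside 22.0% and 28.2% of all genes. Their median log2 fold change was 1.35. The sodium channel gene NaCP60E had 144, 151, 136 and 135 CPM in the embryo libraries and 1005, 1184 and 1221 CPM in the head libraries, and Slob, which encodes a binding partner of the Slowpoke potassium channel, went from 62.5 to 808 CPM (log2 fold change 3.69 ± 0.07 (SE), adjusted p = 2.28e-13). The potassium leak channel gene sand was the lower one (62.0 ± 2.47 CPM in embryos and 10.8 ± 1.81 CPM in heads).

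Most neuropeptide genes rose in heads. Of 32 tested, 25 were higher in heads and 4 were lower, beside 22.0% and 28.2% of all genes. Their median log2 fold change was 2.73. Nplp3 had 0.138, 0.182, 0.283 and 0.115 CPM in embryos and 772, 797 and 628 CPM in heads, sNPF had 12.004, 10.4, 8.70 and 9.55 CPM in embryos and 148, 161 and 147 CPM in heads, and myosuppressin (Ms) had 8.38, 7.999, 7.45 and 7.45 CPM in embryos and 127, 138 and 123 CPM in heads, none with overlap. The 4 that were lower were Burs, ETH, Eh and Akh. The first 3 encode hormones of the molting sequence, bursicon, ecdysis triggering hormone and eclosion hormone. Burs had 4.48, 3.85, 3.64 and 3.42 CPM in embryos and no count in heads, at least 91.3-fold lower. Eh had 1.99, 1.79, 2.01 and 1.87 CPM in the embryo libraries and 0.125, 0.0439 and 0.204 CPM in the head libraries (log2 fold change −3.88 ± 0.35 (SE), adjusted p = 4.27e-07), and this direction did not hold in elavmin libraries, where heads were higher (log2 fold change 2.62). ETH went from 11.2 to 1.04 CPM, wholly in bins shared with the opposite strand.

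Of 16 circadian clock genes, 9 were higher in heads and none was lower, beside 22.0% and 28.2% of all genes. Their median log2 fold change was 2.28. In this loop the transcription factors CLK and CYC activate per and tim, whose proteins return to inhibit them. The timeless gene tim had 28.9, 30.2, 35.9 and 31.9 CPM in the embryo libraries and 1603, 1691 and 1631 CPM in the head libraries, and period (per) had 4.37, 4.51, 5.22 and 4.58 CPM in the embryo libraries and 237, 230.0 and 281 CPM in the head libraries (log2 fold change 5.74 ± 0.09 (SE), adjusted p = 7.12e-14). The loop's second repressor gene, vri, went from 9.81 to 387 CPM. The time of day of collection was not analysed here, and clock transcripts depend on it.

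Glial genes moved in both directions, 8 of 18 higher in heads and 4 lower (44.4% and 22.2%, beside 22.0% and 28.2% of all genes). The sign of their median depended on the scaling. The 3 glial markers summed to 204–218 CPM in embryos and 193–203 CPM in heads. The glutamate transporter gene Eaat2 rose, with 48.5, 45.4, 44.05 and 42.8 CPM in the embryo libraries and 695, 662 and 687 CPM in the head libraries, and so did that of glutamine synthetase 2 (Gs2), from 244 to 1479 CPM. The glial transcription factor gene repo had 23.5, 20.3, 21.5 and 21.4 CPM in embryos and 62.1, 57.4 and 63.0 CPM in heads (log2 fold change 1.49 ± 0.07 (SE), adjusted p = 4.05e-10), with 62.4% of its counts in bins shared with the opposite strand and a log2 fold change of 1.36 outside them. Gli and sinu encode proteins of septate junctions, which seal epithelia as well as glia. Gli fell, with 236, 256, 247 and 243 CPM in the embryo libraries and 38.4, 37.6 and 37.3 CPM in the head libraries, and the claudin gene sinu fell from 114 to 19.5 CPM. The astrocyte gene alrm had 97.3, 99.5, 94.5 and 96.9 CPM in embryos and 54.8, 45.7 and 45.3 CPM in heads, whose log2 fold change of −0.998 missed the limit.

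Genes of dividing neural progenitors were mostly lower in heads. Of 27 genes of neuroblasts and neurogenesis, 19 were lower in heads and 2 were higher, beside 28.2% and 22.0% of all genes. Their median log2 fold change was −2.07. The temporal transcription factor gene cas had 51.3, 48.2, 43.6 and 44.98 CPM in the embryo libraries and 0.125, 0.0439 and 0.0409 CPM in the head libraries (log2 fold change −9.30 ± 0.18 (SE), adjusted p = 3.07e-13). The asymmetric division gene mira had 33.0, 37.3, 35.1 and 35.9 CPM in embryos and 0.585, 1.19 and 0.736 CPM in heads. The neuroblast factors ase, wor and dpn reached 3.97 ± 0.474, 4.72 ± 0.581 and 6.99 ± 0.546 CPM in embryos and 0 ± 0, 0.0293 ± 0.0507 and 0.250 ± 0.143 CPM in heads (± SD), and 67.3% of the counts of dpn lie in bins shared with the opposite strand. Against the direction of the list, prospero (pros), which ends division in neuroblast progeny and is kept in many neurons, rose from 95.5 to 622 CPM (log2 fold change 2.70 ± 0.09 (SE), adjusted p = 7.71e-11), as did dati.

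Cell cycle and DNA replication genes followed, with 22 of 33 lower and 1 higher, beside 28.2% and 22.0% of all genes (median −1.77). The mitotic phosphatase gene stg had 39.2, 35.8, 36.7 and 35.3 CPM in the embryo libraries and 1.09, 0.967 and 0.654 CPM in the head libraries, and cyclin A (CycA) had 30.1, 29.97, 32.7 and 29.0 CPM in embryos and 1.84, 1.98 and 2.62 CPM in heads. The exception was Orc5, a subunit of the origin recognition complex, with 1.604, 1.70, 1.382 and 1.53 CPM in embryos and 3.30, 3.74 and 3.68 CPM in heads; 43.9% of its counts lie in bins shared with the opposite strand, outside which its log2 fold change was 1.14, and in elavmin libraries its log2 fold change of 0.87 stayed under the limit.

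Hox genes set segment identity along the body axis, and those of the trunk and abdomen fell most. The abdominal genes abd-A and Abd-B had 191, 185, 178 and 183 CPM and 83.6, 77.0, 79.4 and 78.3 CPM in embryos and no count in any head library, at least 4371-fold and 1888-fold lower. Ubx had 61.9, 67.1, 60.2 and 65.4 CPM in the embryo libraries and 0.585, 0.747 and 0.531 CPM in the head libraries (log2 fold change −6.67 ± 0.11 (SE), adjusted p = 7.55e-14), and Antp had 93.4, 91.6, 87.5 and 83.3 CPM in embryos and 3.13, 2.505 and 2.41 CPM in heads. Scr, lab and pb changed less. Scr went from 42.8 to 16.9 CPM (log2 fold change −1.34 ± 0.07) and lab from 23.6 to 3.94 CPM (−2.58 ± 0.09), whereas pb had 13.4, 14.03, 13.7 and 12.5 CPM in embryos and 8.98, 10.9 and 10.6 CPM in heads and did not reach the limit (−0.40 ± 0.09). Dfd, which patterns the maxillary segment, was the only one higher in heads, with 15.96, 14.03, 13.6 and 15.6 CPM in embryos and 31.0, 30.7 and 29.4 CPM in heads (log2 fold change 1.04 ± 0.08, 0.99 without embryo replicate 3). Of the 10 Hox and cofactor genes listed, 6 were lower and 1 was higher, beside 28.2% and 22.0% of all genes.

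Axon guidance and adhesion genes were lower in 10 of 32 and higher in 5 (median log2 fold change −0.56), beside 28.2% lower and 22.0% higher of all genes. Scaled by library size alone, 6 were lower and 5 higher. Neuroglian (Nrg), an L1-type adhesion protein of neurons and epithelia, had 1163, 1148, 1115 and 1145 CPM in the embryo libraries and 177, 186 and 198 CPM in the head libraries (log2 fold change −2.61 ± 0.06 (SE), adjusted p = 9.67e-13), and fasciclin 3 (Fas3) went from 562 to 68.4 CPM. Fasciclin 1 (Fas1) rose, with 329.5, 343, 327 and 329 CPM in the embryo libraries and 2743, 3119.8 and 3102 CPM in the head libraries, and so did the repulsive receptor gene Dscam2, from 95.9 to 482 CPM.

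Twdl genes had the lowest median fold change of the 36 lists. All 24 of these Tweedle (Twdl) cuticle genes tested were lower in heads, beside 28.2% lower and 22.0% higher of all genes. Their median log2 fold change was −11.95, or −10.48 with genes at 0 in heads set to their bound. TwdlM had 4309, 3702, 3579.6 and 4109 CPM in the embryo libraries and 0.251, 0.132 and 0 CPM in the head libraries. TwdlB had 1339, 1003, 987 and 1196 CPM in embryos and no count in heads, at least 26837-fold lower, and TwdlL was at least 24134-fold lower. Of 17 Osiris genes, expressed in epithelia that make cuticle, 14 were lower and none was higher, with Osi15 at 865, 1267, 1086 and 942 CPM in embryos and 0, 0.0439 and 0.286 CPM in heads. Osi2 kept a level in heads, with 221, 359, 289 and 228 CPM in embryos and 29.0, 31.3 and 35.4 CPM in heads. In the larger family of Rebers-Riddiford cuticle proteins (Cpr), 39 of 58 were lower and 12 were higher (median −5.06, or −4.69 with genes at 0 at their bound). Cpr65Ea had 2132, 2123, 2254 and 2215 CPM in the embryo libraries and 0, 0.0439 and 0.0409 CPM in the head libraries, whereas Cpr65Au had 0.830, 0.788, 1.57 and 1.09 CPM in the embryo libraries and 242, 233 and 231 CPM in the head libraries, an adult member that rose 221-fold. Of 24 genes for chitin and cuticle tanning, 16 were lower and 4 were higher. The chitinase gene Cht6 went from 1565 to 15.3 CPM, the chitin deacetylase gene verm from 2197 to 26.2 CPM, and the chitin-binding protein gene Gasp from 2279.6 to 46.8 CPM.

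Most muscle genes were lower in heads, while most of the adult muscle list was higher. Of 24 embryonic and larval muscle genes, 18 were lower and 2 were higher, beside 28.2% and 22.0% of all genes. Their median log2 fold change was −2.58, beside the summed body wall muscle markers given above. Myosin heavy chain (Mhc) had 15646, 15366, 15213 and 16136 CPM in the embryo libraries and 3100.3, 3859.7 and 3231 CPM in the head libraries (log2 fold change −2.20 ± 0.09 (SE), adjusted p = 1.55e-10). Troponin T (up) went from 5646 to 689 CPM, the light chain gene Mlc2 from 4362 to 896 CPM, and bt, the gene of the giant kinase projectin, from 5919.7 to 754 CPM. The troponin C gene TpnC25D rose, with 40.1, 41.2, 37.04 and 38.6 CPM in embryos and 298, 346 and 253 CPM in heads. Of 10 genes of adult and flight muscle, 6 were higher and 2 were lower. The flight muscle actin gene Act88F had 0.415, 0.636, 0.597 and 0.489 CPM in the embryo libraries and 22.6, 18.1 and 11.9 CPM in the head libraries, and Act79B, another muscle actin gene, went from 2.92 to 63.0 CPM.

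Genes listed for the adult fat body and for immune peptides rose in heads in 26 of 27 cases and fell in none (median log2 fold change 6.65), while the 5 fat body markers summed to 1710–2206 CPM in embryos and 1884–2830 CPM in heads, with 3 of them called higher. The list was drawn up for the adult, so its direction here is not independent evidence. Of its 37 single genes, 10 fell below the minimum count for a test. With the DESeq2 Wald test, 21 of the 27 were called higher. The bomanin gene BomS3, which encodes a short immune peptide, had 0.138, 0.212, 0.377 and 0.0576 CPM in the embryo libraries and 156, 103 and 132 CPM in the head libraries. Cyp4d21 had 0.277, 0.333, 0.440 and 0.259 CPM in embryos and 220.2, 168 and 242 CPM in heads, and sxe2 had 2.30, 0.848, 1.73 and 2.01 CPM in embryos and 515, 332 and 446 CPM in heads; both are known as genes of the head fat body under control of the sex determination pathway. Lsp2, which encodes a storage protein, had 0.332, 0.273, 0.471 and 0.374 CPM in embryos and 235, 53.4 and 159.7 CPM in heads; the head libraries differed about 4-fold among themselves, and nearly all these counts lie in a bin shared with the opposite strand. Of 13 hemocyte genes, 5 were higher and 5 were lower (38.5% each, beside 22.0% and 28.2% of all genes). The 3 hemocyte markers summed to 347–371 CPM in embryos and 335–357 CPM in heads. The basement membrane genes Col4a1, vkg and Ppn went from 8411 to 370.0 CPM, from 5216 to 237 CPM and from 3316 to 343 CPM. Hemolectin (Hml) had 43.1, 27.7, 19.1 and 27.4 CPM in embryos and 120.4, 120.0 and 125 CPM in heads, with the embryo libraries more spread than the head libraries, and the phagocytosis receptor gene eater had 0.0830, 0.454, 0.283 and 0.173 CPM in embryos and 6.22, 4.88 and 7.19 CPM in heads.

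Digestive genes fell in 19 of 29 cases and rose in 8, beside 28.2% and 22.0% of all genes. Their median log2 fold change was −5.78, or −5.52 with genes at 0 at their bound. The sum of the 4 gut markers given above also fell, with 3 of them called lower and 1 called higher. Their part in these counts was not tested. The protease gene Jon65Aiii had 66.4, 78.0, 73.7 and 70.9 CPM in embryos and no count in heads, at least 1714-fold lower, and its neighbor Jon65Aiv had 97.4, 69.0, 61.2 and 73.5 CPM in embryos and 0, 0.0439 and 0 CPM in heads. LManV, a lysosomal mannosidase gene, was at least 4326-fold lower, and the maltase gene Mal-A3 went from 219 to 0.0842 CPM. Ser7, of the serine protease family, rose from 0.329 to 55.9 CPM. Of 11 genes of trachea and salivary gland, 7 were lower and none was higher, with uif, which shapes the tracheal tube, going from 958 to 58.2 CPM. Of 14 germ cell and maternal genes, 9 were lower and none was higher.

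Among genes that every cell uses, those for ribosomal proteins were nearly all lower in heads and most of those for respiration were not called. Of 82 ribosomal protein genes, 80 were lower in heads and none was higher, beside 28.2% and 22.0% of all genes. Their median log2 fold change was −1.58, and it lay between −1.604 and −1.377 over the scalings tried. RpS7 had 2560.2, 2794, 2735 and 2675 CPM in the embryo libraries and 814, 731 and 762 CPM in the head libraries, RpL7A had 2591, 2654, 2561 and 2810.2 CPM in embryos and 1189, 1063 and 1180.1 CPM in heads, and RpL4 had 2761, 2801, 2819 and 3037 CPM in embryos and 1008, 873 and 1004 CPM in heads, with no overlap. For RpL4, 45.9% of the counts lie in bins shared with the opposite strand, outside which its log2 fold change was −1.69. Of 70 genes of oxidative phosphorylation, 64 were not called, 2 were higher and 4 were lower (median 0.22). COX7AL2 rose, with 1.11, 0.545, 0.471 and 0.806 CPM in embryos and 38.4, 37.4 and 32.2 CPM in heads. The lower value of ATPsyndelta, 3289.7 ± 176 CPM in embryos and 267 ± 18.7 CPM in heads, came from its last bin of 2839 bases, which CG2962 overlaps on the opposite strand. Outside the overlap its counts were 8789–9763 in embryos and 5997–6611 in heads, which gave a log2 fold change of −0.02 (adjusted p = 0.729).

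Of 83 cytochrome P450 genes, 39 were higher in heads and 22 were lower (47.0% and 26.5%, beside 22.0% and 28.2% of all genes; median log2 fold change 0.85). Cyp313a1 had 0.194, 0.0303, 0.0943 and 0.0288 CPM in the embryo libraries and 713, 602 and 785 CPM in the head libraries, and Cyp304a1 had 274, 254, 323 and 290.4 CPM in the embryo libraries and 0.125, 0 and 0 CPM in the head libraries. Cyp18a1, whose product inactivates ecdysteroids, had 259, 234, 273 and 292 CPM in embryos and 42.1, 37.7 and 39.4 CPM in heads. Glutathione transferase and UGT genes were mostly lower, 36 of 68, with 14 higher (median −1.25), among them GstS1, from 269.8 to 79.0 CPM.

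Of 17 genes of the ecdysone and juvenile hormone response, 7 were higher in heads and 3 were lower (41.2% and 17.6%, beside 22.0% and 28.2% of all genes). The metamorphosis factor Eip93F had 0.692, 0.697, 1.01 and 0.835 CPM in the embryo libraries and 163, 175 and 187 CPM in the head libraries (log2 fold change 7.76 ± 0.10 (SE), adjusted p = 1.02e-14). Eip75B rose from 61.0 to 189.7 CPM, while Eip74EF fell from 282 to 49.9 CPM. Of 11 genes of sex determination and dosage compensation, 4 were higher (36.4%, beside 22.0% of all genes) and none was lower. The effector gene doublesex (dsx) had 1.94, 1.61, 1.57 and 0.9497 CPM in embryos and 49.1, 45.1 and 50.3 CPM in heads. The other effector, fruitless (fru), had 6.56, 4.91, 6.38 and 4.55 CPM in embryos and 113, 114 and 121 CPM in heads, and tra, which acts above both, had 2.99, 3.24, 4.46 and 3.71 CPM in embryos and 18.7, 17.3 and 15.9 CPM in heads. The dosage compensation RNA roX2 had 37.8, 33.8, 33.5 and 26.4 CPM in embryos and 98.1, 105 and 82.9 CPM in heads (log2 fold change 1.54 ± 0.12), and roX1, at 734, 716, 693 and 676 CPM in embryos and 1273, 1511 and 1428 CPM in heads, stayed just under the limit (0.995 ± 0.06). Of 15 cleavage and polyadenylation genes, 14 were not called; the exception was the nuclear poly(A)-binding protein gene Pabp2, which fell from 98.2 to 25.5 CPM. Of 15 genes of the axonal cytoskeleton, 13 were not called and 2, kst and betaTub56D, were lower.

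**Figure D2:**
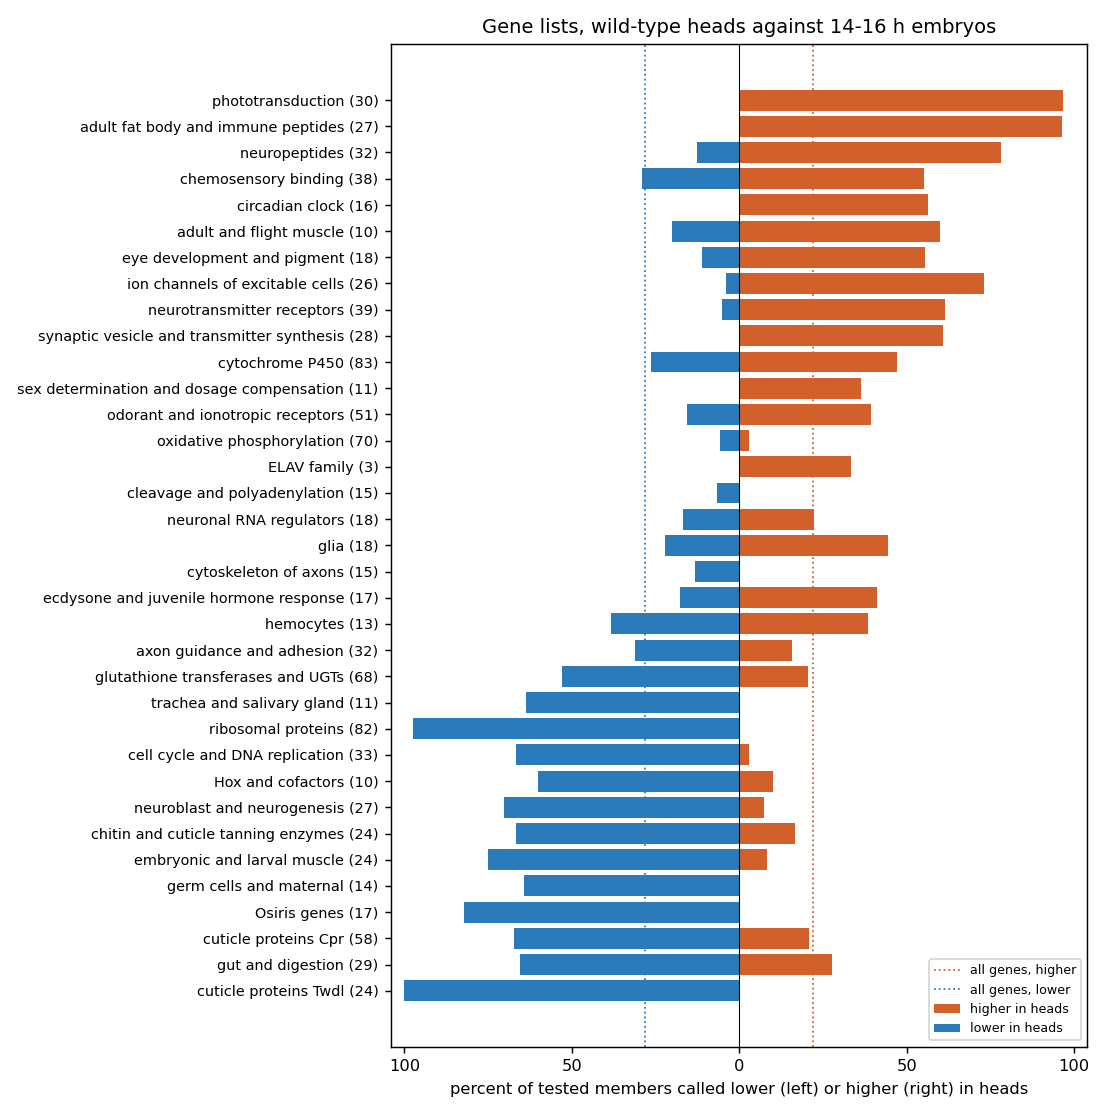
Share of the tested members of each gene list, with their number in brackets, called lower (left, blue) or higher (right, orange) in wild-type heads than in 14–16 h embryos, in percent. The dotted lines mark the same shares over all 11901 genes, 28.2% lower and 22.0% higher; phototransduction (29 of 30 higher) and Twdl genes (24 of 24 lower) lie at the ends.

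Within genes, the use of exons also shifted, in 1961 of the 9498 genes that could be tested. The usage change of a bin is its log2 fold change minus that of its gene, tested for 61971 bins with diffSpliceDGE, the usage test of edgeR. Called at an adjusted p under 0.01 and a usage change of at least 2-fold, 4788 bins passed (7.73%), 2521 with higher usage in heads (4.07%) and 2267 with lower usage (3.66%). The median over all bins was −0.02. Bins found in every annotated transcript of a gene were seldom called, 228 higher and 326 lower of 40255, while 2293 and 1941 of the 21716 bins found in only some transcripts were. Coding bins were called about equally in both directions, 670 higher and 664 lower of 26799. Bins of 5′ UTRs were called more often lower, 716 against 605 of 8142. Bins of 3′ UTRs were called mostly higher, 411 against 101 of 3430, and those in every transcript hardly at all, 3 against 2 of 181. The last bins of genes were higher in 428 cases and lower in 115 of 8853. Last bins in every transcript were higher in 62 and lower in 21 of 6064 cases, with a median of 0.10. Those in some transcripts were higher in 366 and lower in 94 of 2789, with a median of 0.28. The coverage of the head libraries was also shifted towards the 3′ end, and its part in these counts was not tested.

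The shortest exons were called with higher usage in heads more often than longer ones. Of 213 internal exons of at most 30 bases that no other bin adjoins, 63 had higher usage in heads (29.6%) and 17 lower (7.98%). Requiring a mean of at least 10 counts in each stage gave 44 calls in place of 80. These were 34 higher and 10 lower of 155 exons, beside 3311 calls among 52322 bins of all kinds under the same minimum. The shares by length that follow were not computed with this minimum. In the subset of coding exons found in only some transcripts, 40.1% of the 137 exons of at most 30 bases were higher, 24.7% of the 279 exons of 31–60 bases, 13.8% of the 716 of 61–120 bases, 12.9% of the 1500 of 121–300 bases and 13.4% of the 1325 longer ones. The shares with lower usage ran from 8.03% to 13.9% without such an order. Of the coding exons of at most 30 bases, those with a length that is a multiple of 3, which keep the reading frame, were called higher in 54 of 147 cases and lower in 11, and those of other lengths in 1 and 2 of 23. An AG just before the exon and a GT or GC just after it, the splice site letters of introns, were present in 94.4% of the 213 exons and in 95.0% of all 27207 internal exons that no bin adjoins.

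**Figure D3:**
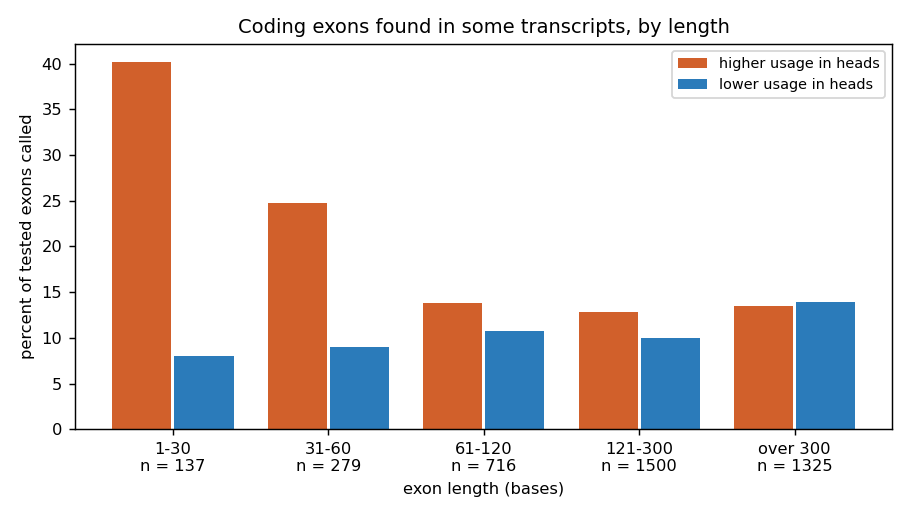
Percent of internal coding exons found in some transcripts that were called with higher (orange) or lower (blue) usage in heads, by exon length in bases; n is the number of exons tested. The share with higher usage falls from 40.1% at up to 30 bases to 13.4% above 300 bases, while the share with lower usage stays between 8.03% and 13.9%. No minimum count in each stage was required.

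The sequences of 6 of these exons are shown because they are among the 12 short exons with the largest changes, 6 in each direction, of those in genes with at least 10 CPM in both stages and with a mean of at least 50 counts in the stage of higher usage, and because their length is the property by which the calls above differ. They are taken 5′ to 3′ on the strand of the gene from the RefSeq genome of Release 6 (dm6), with the exon in capitals and the adjoining intron bases in lower case.
up, 3 bases, chrX:13598174-13598176, minus strand: tgttgcagGAAgtaagtaa
nrv3, 6 bases, chr2L:21388282-21388287, plus strand: ataataagATCACAgtaagtta
OtopLa, 21 bases, chrX:5633738-5633758, minus strand: taagCACACACTGGCCAAGTTTCTGgttt
Moe, 27 bases, chrX:8876033-8876059, minus strand: gACTGGATCAATGCCGTTTTCGACATGGg
OtopLa, 18 bases, chrX:5632190-5632207, minus strand: tcgcagACTAGGCCGCCATTTCAGgtacga
dlg1, 24 bases, chrX:11394223-11394246, plus strand: cagCTCCATAAGGCATCGTCCACAAAGgta
The coordinates are those of the exon alone. All 6 are coding, have an AG before and a GT after them in the genome, and have a length that is a multiple of 3.

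The first 4 of these were used more in heads. The 3-base exon of up, the gene of troponin T, took 0.118, 0.106, 0.125 and 0.106% of the gene's counts in the embryo libraries and 3.82, 3.20 and 3.44% in the head libraries, while the gene as a whole fell (log2 usage change 4.93 ± 0.13 (SE), adjusted p = 2.56e-62). The 6-base exon of nrv3, a beta subunit of the sodium pump, had 8, 6, 2 and 4 counts in embryos and 589, 640 and 688 in heads, or 0.0509, 0.0473, 0.0172 and 0.0308% in embryos and 1.603, 1.52 and 1.67% in heads (log2 usage change 5.36 ± 0.23 (SE), adjusted p = 1.32e-33). In OtopLa, an otopetrin proton channel gene, exons moved in opposite directions: the 21-base exon went from 0.0246% to 1.14% (log2 usage change 5.48 ± 0.26 (SE), adjusted p = 2.73e-43), and the 18-base exon, with 0.484, 0.434, 0.351 and 0.354% in embryos and 0.111, 0.118 and 0.127% in heads, was used less in heads (log2 usage change −1.78 ± 0.25 (SE), adjusted p = 5.09e-10). The 27-base exon of Moesin (Moe), a linker of actin to the membrane, went from 0.0971% to 2.17% of the gene's counts, beside a 132-base exon that went from 0.0242% to 3.65% (log2 usage changes 4.47 and 7.21). Exons of RyR (21 bases, the ryanodine receptor gene) and ClC-a (30 bases, a chloride channel gene) also rose, from 0.0346% to 0.536% and from 0.118% to 1.78%. The 24-base exon of dlg1, the gene of the scaffold protein discs large, took 1.26, 1.29, 1.21 and 1.33% of the gene's counts in the embryo libraries and 0.261, 0.304 and 0.216% in the head libraries and fell (log2 usage change −2.29 ± 0.17 (SE), adjusted p = 3.57e-29). Also lower were 26 bases of CG1927 (−2.58), 19 bases of kmr (−1.49), 30 bases of CG11790 (−1.44) and 20 bases of CG9839 (−1.30). No AG precedes those of CG1927 and CG9839, and the gene CCT7 overlaps those of CG9839 on the opposite strand. No exon named here overlapped between the stages.

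**Figure D4:**
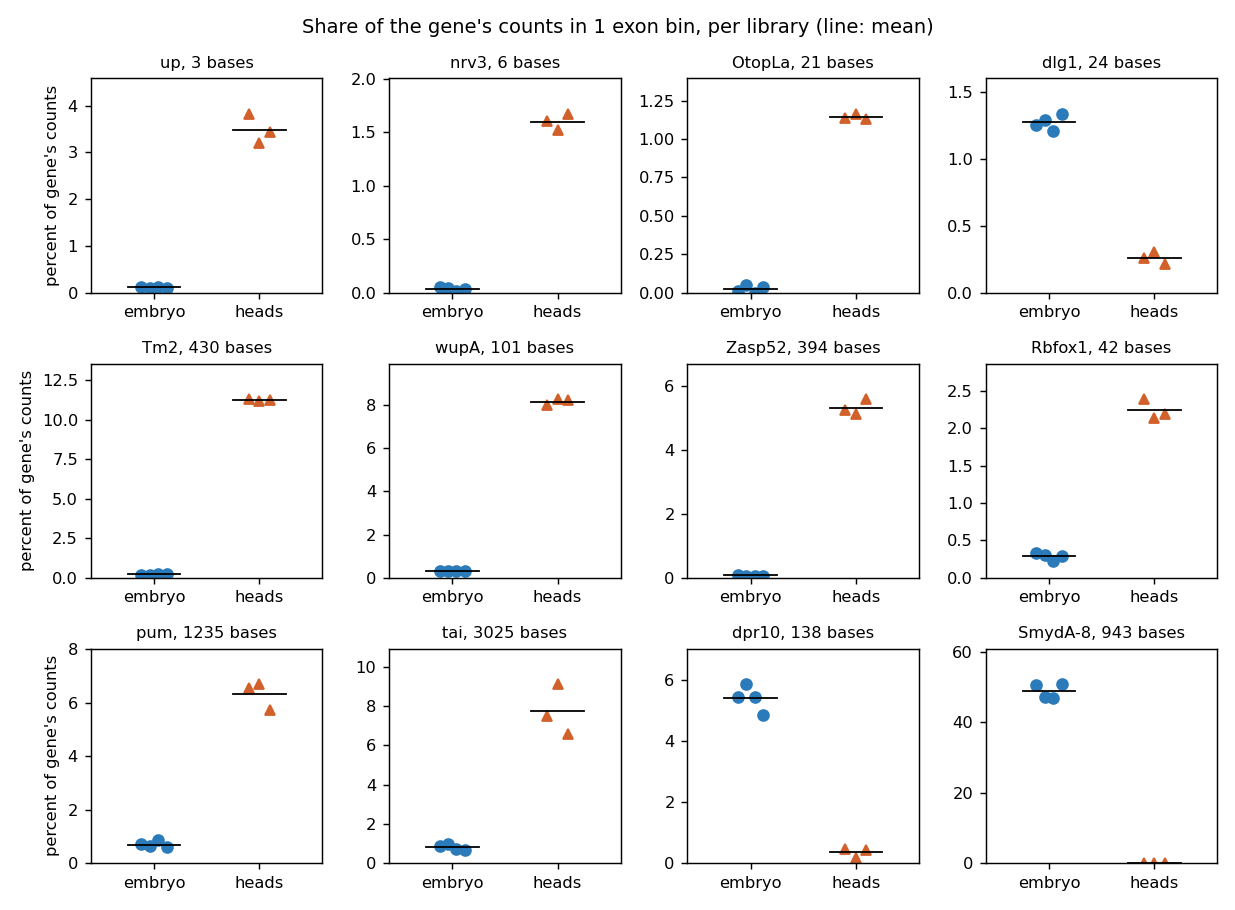
Share of the gene's counts that falls in 1 exon bin, in percent, for 12 bins; circles are the 4 embryo libraries, triangles the 3 head libraries and lines the means. In every panel the groups are separate: the dlg1, dpr10 and SmydA-8 bins are lower in heads and the other 9 are higher.

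The largest gains in usage were of bins that hold an alternative start and of internal coding exons. Among bins of genes with at least 10 CPM in both stages and a mean of at least 50 counts in the stage of higher usage, the 10 with the largest increase, 1 a gene, were in mbl, Kul, dlg1, Rbp9, Mob2, Moe, Obsc, flw, tutl and Pdp1. The bin of mbl, a splicing regulator of muscle and neurons, is the first of 20 and lies in a 5′ UTR (chr2R:17216549-17217075); it had 0, 0, 0 and 0 counts in embryos and 116, 113 and 100 in heads. In Rbp9, a 5′ UTR exon of 354 bases (chr2L:2956911-2957264) had 0, 0, 0 and 0 counts in embryos and 206, 206 and 247 in heads (log2 usage change 7.64 ± 0.51 (SE), adjusted p = 2.31e-24). In dlg1, a 956-base exon that begins the coding sequence of 2 of 21 transcripts had 0.0363, 0, 0 and 0.00654% in embryos and 5.18, 5.06 and 5.24% in heads. In Pdp1, a clock gene, a 1424-base bin (chr3L:7830387-7831810) took 0.277, 0.211, 0.267 and 0.188% of the gene's counts in the embryo libraries and 22.4, 19.9 and 22.8% in the head libraries (log2 usage change 6.51 ± 0.13 (SE), adjusted p = 1.24e-72), and the first exon of other transcripts, of 129 bases, went from 0.511% to 0.00280%. The bins of Mob2 and flw went from 0.0522% to 8.78% and from 0.0649% to 6.66%, and those of Kul, Obsc and tutl, at or near 0 in embryos, to 1.35%, 0.961% and 0.802% in heads.

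Most of the largest losses were of bins that hold a 5′ UTR. Under the same limits, the 10 bins with the largest decrease were in SmydA-8, CG32473, Eip63F-1, ATPsyndelta, Eip75B, sima, Pdp1, Taf2, cher and CG7741. In SmydA-8, of the SET and MYND domain family, a start exon of 1 of 4 transcripts, of 943 bases (chrX:2212867-2213809), took 50.5, 47.3, 46.8 and 50.8% of the gene's counts in the embryo libraries and 0.0471, 0.0521 and 0.0712% in the head libraries (log2 usage change −9.69 ± 0.20 (SE), adjusted p = 5.25e-31). In Eip75B, a hormone receptor gene induced by ecdysone, the start exon of 1 of 7 transcripts (chr3L:17969644-17971439) had 9.33, 11.3, 12.4 and 8.15% in embryos and 0, 0.0916 and 0% in heads although the gene rose (log2 usage change −8.32 ± 0.43 (SE), adjusted p = 2.47e-29). Bins of CG32473, Eip63F-1 and sima, which encodes the hypoxia factor of the fly, had no count in any head library. In embryos they held 503, 421, 374 and 418 counts (CG32473), 78, 87, 67 and 77 counts (Eip63F-1) and 152, 148, 135 and 151 counts (sima). The cher bin, a 5′ UTR exon of a filamin gene, went from 1.75% to 0.00991%. Bins of ATPsyndelta, CG7741 and Taf2 are overlapped on the opposite strand by CG2962, Obp47b and CG34382, so their losses cannot be told apart from those of the other genes.

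Several muscle genes that fell in total also changed in bin usage. Of all bins, 4.07% had higher and 3.66% lower usage. In wupA, the gene of troponin I, a 101-base exon (chrX:18109470-18109570) had 0.332, 0.295, 0.313 and 0.334% in embryos and 7.98, 8.26 and 8.22% in heads (log2 usage change 4.68 ± 0.13 (SE), adjusted p = 1.38e-63). In Tm2, a tropomyosin gene, a terminal exon of 430 bases (chr3R:15313591-15314020) took 0.194, 0.172, 0.243 and 0.236% of the gene's counts in the embryo libraries and 11.3, 11.2 and 11.3% in the head libraries. In Mhc, a 64-base bin, the last but one (chr2L:16787517-16787580), went from 0.0250% to 1.381%, one of 10 bins with higher and 8 with lower usage among 37. The sarcomere genes Zasp52 and sls gained a 394-base exon (from 0.0726% to 5.31%) and a 5496-base exon (from 0.212% to 5.14%), respectively, and sls had 7 bins higher and 13 lower of 38. Unlike the other genes here, Zasp52 was not called in total (log2 fold change −0.04, edgeR adjusted p = 0.614). In bt, none of 47 bins was called.

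Genes of neurons differed in the number of bins called. Over all bins, 4.07% were higher and 3.66% lower, and over bins found in only some transcripts 10.6% and 8.94%. Slob had 3 higher and 11 lower of 24, fru 3 and 4 of 15, and norpA 2 and 4 of 19, while Rbfox1 had 2 higher of 25 and Snap25 1 higher of 9. In Rbfox1, a splicing regulator, a coding exon of 42 bases (chr3L:10577283-10577324) took 0.325, 0.300, 0.226 and 0.294% of the gene's counts in the embryo libraries and 2.39, 2.14 and 2.19% in the head libraries (log2 usage change 2.94 ± 0.16 (SE), adjusted p = 8.65e-37). The gene total had a log2 fold change of −0.14 (adjusted p = 0.0536). In Cadps, required for release of dense-core vesicles, a 168-base exon went from 0.370% to 3.28%. In the potassium channel genes, slo gained a 36-base exon (from 0.235% to 1.15%) and Sh used a 130-base exon less (from 0.414% to 0.101%, log2 usage change −2.01). The calcium channel gene cac and the sodium channel gene para gained exons of 116 and 33 bases. The first had 0, 0, 1 and 0 counts in embryos and 25, 26 and 40 in heads, and the second had 2, 2, 2 and 0 counts in embryos and 33, 46 and 78 in heads. In Snap25, a SNARE gene, a 49-base exon of 1 of 2 transcripts had 1, 0, 0 and 0 counts in embryos and 95, 101 and 90 in heads (log2 usage change 3.83 ± 0.75 (SE), adjusted p = 4.72e-05). In fru, a 292-base bin near the start had no count in embryos and 84, 78 and 108 in heads. In norpA, a 269-base 5′ UTR exon fell from 0.646% to 0.0457%. In Slob, a 12-base exon had 0.535, 0.567, 0.321 and 0.336% in embryos and 0.0710, 0.0509 and 0.0695% in heads (log2 usage change −2.81 ± 0.42 (SE), adjusted p = 1.45e-08), a direction that did not hold in elavmin libraries (0.55, adjusted p = 0.0522).

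The Nrg, ewg and arm pre-mRNAs are known splicing targets of ELAV. In Nrg, 1 bin was higher and 1 lower of 19 tested, beside 4.07% and 3.66% of all bins. A 339-base terminal exon of 1 of 9 transcripts (chrX:8549018-8549356) had 2.52, 2.51, 2.27 and 2.55% of the gene's counts in the embryo libraries and 0.637, 0.733 and 0.763% in the head libraries (log2 usage change −1.78 ± 0.14 (SE), adjusted p = 1.01e-20). The 3′ UTR of Nrg that the study lists as ELAV-dependent was called higher in heads (log2 usage change 1.74). Its listed exon was not called (0.19). In Fas2, a 45-base exon rose from 0.305% to 0.956%. In ewg, a 9-base bin fell from 0.692% to 0.263% (log2 usage change −1.38, adjusted p = 4.12e-04), a call lost without head replicate 2 (adjusted p = 0.01003). In arm, the most changed bin, of 97 bases, had 4.18, 4.31, 4.37 and 4.56% in embryos and 3.05, 2.41 and 2.63% in heads, a log2 usage change of −0.69 under the limit. In elav, no bin of 6 was called, and the most changed one, a 257-base exon, had −0.91. In fne, 2 of 16 bins were higher and 5 lower, the most changed a 7-base piece of a 5′ UTR (25, 20, 23 and 22 counts in embryos and 2, 2 and 5 in heads). Of the 119 bins of Dscam1, 72 could be tested, of which 11 were higher and 1 was lower.

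Of the 3′ UTRs that the study lists as ELAV-dependent, more were called with higher than with lower usage in heads. Of 271 listed, 242 had a tested bin with at least a share of 0.5 of its length inside, of which 90 were higher (37.2%) and 3 lower (1.24%), with a median log2 usage change of 0.75 beside −0.02 for all bins. Each 3′ UTR is represented here by its bin with the smallest p-value in this same comparison. Without that choice, over all 293 bins of these 3′ UTRs, 105 were higher (35.8%) and 11 lower (3.75%). Among all 3249 bins that lie in 3′ UTRs of some transcripts, 12.6% were higher and 3.05% lower. The list was chosen by the study on other contrasts, partly with these embryo libraries, so its direction here is not independent evidence. Where 1 bin alone represents the 3′ UTR, 74 of 215 were higher and 3 lower, and where no gene of the opposite strand overlaps, 81 of 215 and 3. Among those that the study classes as changes of the 3′ UTR alone, 71 of 195 were higher and 3 lower, and among those that also change the coding end, 18 of 41 and none. Coverage leaned to the 3′ end in heads, and its part in these counts was not tested. At the level of genes, 62 of the 243 genes with such a 3′ UTR were higher in heads and 35 lower, beside 22.0% and 28.2% of all genes.

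The named 3′ UTRs show how far usage moved. In tai, a nuclear receptor coactivator gene, the distal bin of 3025 bases (chr2L:9247187-9250211) took 0.869, 0.945, 0.722 and 0.638% of the gene's counts in the embryo libraries and 7.51, 9.12 and 6.60% in the head libraries (log2 usage change 3.28 ± 0.15 (SE), adjusted p = 6.98e-38). In Mef2, the muscle and neuron transcription factor gene, the last 2006 bases (chr2R:9913496-9915501) took 1.604, 1.40, 1.36 and 1.21% of the gene's counts in the embryo libraries and 12.8, 14.5 and 12.2% in the head libraries. In pum, the gene of a translational repressor, the last 1235 bases (chr3R:9066343-9067577) had 0.692, 0.620, 0.855 and 0.587% in embryos and 6.54, 6.69 and 5.74% in heads (log2 usage change 3.20 ± 0.13 (SE), adjusted p = 1.65e-44). Vha26, a subunit gene of the vacuolar proton pump, went from 0.120% to 1.31%. The relative gain of Muc55B (from 1.43% to 24.0%, log2 usage change 4.14), within a gene that fell, rested on 45, 31, 21 and 30 counts in embryos and 3, 2 and 6 in heads. Its call was lost without embryo replicate 2 or without any 1 of the head replicates (adjusted p = 0.0198 to 0.162). The 3 that fell were in Ldh, Galphaq and pros. Galphaq, in an entry merged with CG45086, had 13.6, 12.9, 11.5 and 13.4% in embryos and 2.98, 3.33 and 3.22% in heads. In pros, the bin had 11.6, 10.6, 10.3 and 10.1% in embryos and 5.14, 5.05 and 5.33% in heads (log2 usage change −1.05, −0.99 without embryo replicate 1). Ldh had 449, 260, 271 and 268 counts in embryos and 1, 4 and 2 in heads, and its call was lost without embryo replicate 1 or 3 or any 1 of the head replicates (adjusted p = 0.0101 to 0.0234).

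**Figure D5:**
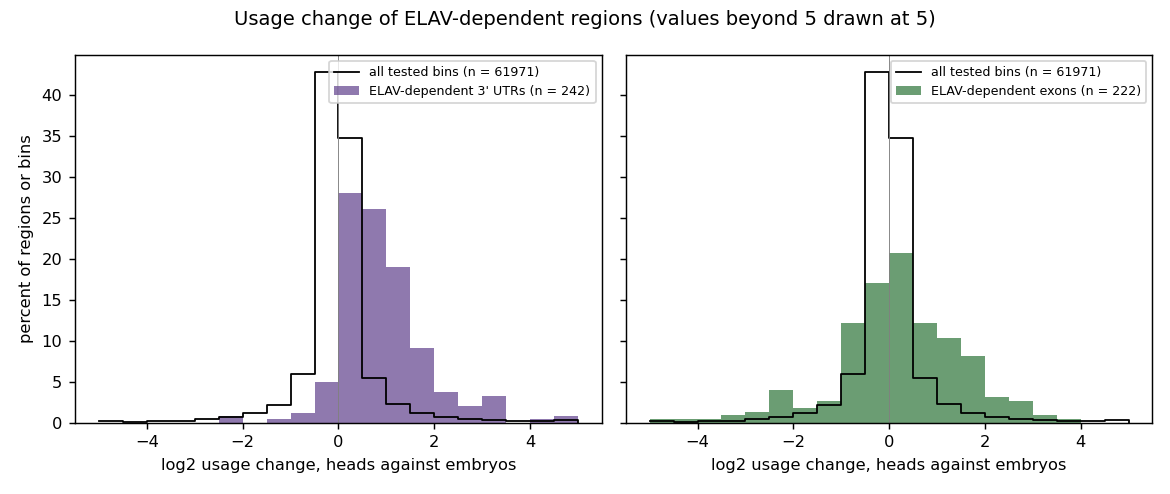
Distribution of the log2 usage change, heads against embryos, for 242 ELAV-dependent 3′ UTRs (left, purple) and 222 ELAV-dependent exons (right, green), each with all 61971 tested bins as a black outline, in percent of regions or bins. Each 3′ UTR is drawn at its bin with the smallest p-value in this comparison. The 3′ UTRs lie mostly above 0, with a median of 0.75, and the exons spread to both sides, with a median of 0.23.

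ELAV-dependent exons were called in both directions. Of 222 tested, 57 were higher (25.7%) and 27 lower (12.2%), with a median log2 usage change of 0.23. Over all bins these shares were 4.07% and 3.66%, and over bins found in only some transcripts 10.6% and 8.94%. Among the 35 of at most 30 bases, 11 were higher and 5 lower. Of all 213 short exons, 29.6% were higher and 7.98% lower, and the difference from these was not tested. The exons of RyR (110 bases) and Jupiter (18 bases) went from 0.0687% to 1.09% and from 0.699% to 6.63% of their genes' counts, and those of LRR (42 bases) and mmd (31 bases) from 0.125% to 1.08% and from 0.137% to 1.11%. In Jupiter, which encodes a microtubule-associated protein, the values were 0.777, 0.708, 0.552 and 0.760% in embryos and 6.58, 6.96 and 6.35% in heads, without overlap. In dpr10, a cell surface gene of synaptic partner choice, a 138-base exon took 5.43, 5.85, 5.44 and 4.84% of the gene's counts in the embryo libraries and 0.466, 0.164 and 0.437% in the head libraries and fell (log2 usage change −3.92 ± 0.28 (SE), adjusted p = 2.87e-19). A 63-base exon of Eps-15, an endocytosis gene, went from 1.19% to 0.0581%, and adjoining bins of CG31140 of 1329 and 198 bases from 7.10% to 0.287% and from 0.801% to 0.0756%.

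The same contrast in elavmin flies, which share no library with wild type, called 5828 genes, of which 5138 were called in the same direction in wild type (86.0% of the wild-type calls and 88.2% of the elavmin calls) and 9 in the opposite one. For bins, 3434 calls were shared in direction (71.7% and 78.3%) and 3 were opposite. Among the ELAV-dependent regions, 125 3′ UTRs were higher and 1 lower in elavmin, beside 90 and 3 in wild type, and 63 exons were higher and 27 lower, beside 57 and 27. Of the named 3′ UTRs that rose, those of pum, tai and Mef2 had log2 usage changes of 5.16, 4.79 and 3.96 in elavmin, beside 3.20, 3.28 and 3.24 in wild type, and that of Vha26 had 3.31 beside 3.43. Muc55B, at 4.29 beside 4.14, did not pass in elavmin (adjusted p = 0.0938 with edgeR). Of those that fell in wild type, Galphaq had −0.56 (edgeR adjusted p = 6.31e-06) beside −2.02, pros had −0.23 (adjusted p = 0.620) beside −1.05, and Ldh had −1.59 (adjusted p = 0.800) beside −2.24. Whether the change differs between the genotypes was not tested.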

How the data were processed

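RNA of wild-type male pools was extracted with TRIzol from whole embryos (4 libraries) and heads (3 libraries), and libraries were made with a stranded Illumina mRNA kit. The authors mapped reads to dm6 with the snakePipes workflow (STAR, Subread and featureCounts are named in the processing notes) and deposited raw counts per exon bin, made with HTSeq. Columns for 1 library that recur in several tables were used once. Deposited fold changes and p-values are the authors' comparisons of mutants with controls and were not used. In the deposited list of ELAV-dependent 3′ UTRs the score column is a placeholder, and only positions were used. Libraries of other genotypes, except elavmin, were not used here.

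Gene totals are sums over bins, so that a read over several bins counts in each. They were tested two-sided in edgeR 4.0.16 (R 4.3.3) with TMM factors, filterByExpr and robust quasi-likelihood fits, and bin usage with diffSpliceDGE, whose coefficients were converted from natural to base 2 logarithms. P-values were adjusted by the Benjamini-Hochberg method over all genes or bins. Both procedures were tested on simulated data with known changes. Totals per library, 21007183 to 38360565, set the precision. A floor of 3 counts over a group replaced groups at 0 in folds, and it covers counting error only. The annotation of strand, transcripts and UTRs was read from Ensembl release 115 and sequences from the RefSeq genome of the same assembly. Merged entries of several genes were left out of the lists. Plots were drawn with matplotlib 3.10.9.

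The members and the 36 gene lists were chosen with earlier results of these data known. Text names follow rules: up to 4 called members per list and direction by level in the higher stage, members against their list, the 12 genes, 10 bins, 6 short exons and 4 ELAV-dependent regions per direction with the largest changes (bins and short exons in genes with at least 10 CPM in both stages and a mean of at least 50 counts in the stage of higher usage), and the most changed bin of each gene examined by name. Genes and bins named beyond these were chosen after their values were seen. The alternatives were other scalings, DESeq2 1.42.0, filters, thresholds, a replicate block and leaving out each library, and after seeing the data also leaving out bins with overlap on the opposite strand and the alternatives for short exons.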

Additional observations from a re-analysis of the deposited data

Results flagged for a closer look

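Among 217 values of named genes and bins in the 4 embryo libraries, 13 had a library whose gap to the nearest other was too large a share of the range by Dixon's test, where chance gives about 5% of values. For genes, embryo replicate 1 stood apart in nAChRbeta1 (131 CPM) and CG4716 (0.0277 CPM), replicate 2 in Rh3 (0.0606 CPM), CG12158 (0.0303 CPM) and Fas1 (343 CPM), and replicate 3 in Syp (9.33 CPM). For shares of a gene's counts, replicate 1 stood apart in the bins of Ldh (6.29%), RyR of 21 bases (0.0193%) and Snap25 (0.173%), replicate 2 in that of ATPsyndelta (92.4%), replicate 3 in those of cac (0.0172%) and Nrg (2.27%), and replicate 4 in that of tutl (0.0286%). The values of Rh3, CG4716, CG12158, Snap25, cac and tutl rest on 1 to 4 counts in a library beside libraries at 0.

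Eh, the eclosion hormone gene, moved in opposite directions in the genotypes. Its log2 fold change was 2.62 in elavmin libraries and −3.88 in wild type. It had 1.99, 1.79, 2.01 and 1.87 CPM in wild-type embryos and 0.125, 0.0439 and 0.204 CPM in wild-type heads, beside 1.87, 2.37, 1.70 and 2.26 CPM in elavmin embryos and 18.7, 9.98 and 9.37 CPM in elavmin heads. Every head library of a genotype lay on the same side of its embryo libraries, and the difference between the genotypes was not tested.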

How the results depend on the processing

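Of 11901 genes tested, 5977 were called, and the count lay between 5776 and 6035 without 1 library and between 5198 and 6657 under the other alternatives, except 10124 without the limit on the fold change. For bins the count of 4788 became 9081 without the limit on the usage change, for short exons 80 became 44 with a mean of at least 10 counts in each stage, and for ELAV-dependent regions 177 became 320 without the limit on the usage change. These alternatives differ from the reported settings by the limit or the minimum alone. Without 1 library the counts were 4523 to 4641 bins, 77 to 84 short exons and 167 to 184 ELAV-dependent regions. With bins on opposite-strand overlap left out, 5523 genes, 4031 bins and 78 short exons were called. Replicate letters did not pair the samples (correlations between −0.03 and 0.06), and a replicate block gave 5929 genes, 4531 bins, 76 short exons and 174 ELAV-dependent regions. In elavmin libraries Eh (2.62) and the 12-base exon of Slob (0.55) had the opposite sign, and the cause was not tested. Calls near a limit moved with single libraries: roX1 (0.995) and alrm (−0.998) passed 1 or −1 under some alternatives, and Dfd, Ldh, Muc55B, pros and ewg lost their calls as given beside their values. In the replicate block the adjusted p of Ldh was 0.0105.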

Other observations

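Of the 9 genes called in opposite directions in wild type and elavmin, Eh is described above. Dhc98D, a dynein heavy chain gene, had 4.45, 5.51, 4.12 and 4.58 CPM in wild-type embryos and 15.5, 18.3 and 22.2 CPM in wild-type heads, and its log2 fold changes were 1.999 ± 0.14 in wild type and −1.34 ± 0.26 in elavmin (SE). CG5966 had 10.6, 6.68 and 9.28 CPM in wild-type heads and 95.8, 29.1 and 52.02 CPM in elavmin heads, with 23.6 to 28.1 CPM in the wild-type embryo libraries and log2 fold changes of −1.55 and 1.24. Mal-A6, a maltase gene, had log2 fold changes of 1.33 ± 0.18 and −1.06 ± 0.24, and its level in elavmin embryos, 3.68 to 6.82 CPM, lay above the 1.09 to 1.47 CPM of wild-type embryos. The differences between the genotypes were not tested.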
